A study of Mus musculus with 2 samples.

Results

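Oxidative phosphorylation is carried out by 5 protein complexes in the inner mitochondrial membrane, and most of their subunits are encoded in the nucleus. The genes described here are these nuclear subunit genes, measured in single cells of mouse plantaris, a calf muscle, after tenotomy, the cutting of a tendon. Members were chosen by symbol (Nduf for complex I, Sdh for complex II, Uqcr for complex III, Cox4 to Cox8 for complex IV and Atp5 for complex V). Of the 32285 gene identifiers in the data, 85 matched, and 83 of these had at least 25 unique molecular identifiers (UMIs, counts of captured transcript molecules) over both libraries. The 83 members comprised 38 genes of complex I, 4 of complex II, 8 of complex III, 16 of complex IV and 17 of complex V. Cox7b2, with 2 UMIs, and Cox8c, with 0 UMIs, were left out. The symbol rule misses Ndufab1 of complex I and Cyc1 of complex III, whose values are given apart from the members. It takes in Atp5s, a coupling factor outside the core ATP synthase, and Ndufb1-ps, which the annotation lists as non-coding.

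The tenotomy group was the plantaris of 5 male C57BL/6 mice aged 12 weeks, taken on day 4 after tenotomy of that side, and the sham group was the plantaris of the opposite side of the same mice. Collagenase digests of the pooled muscles were sorted for living mononuclear cells (Calcein AM taken up, propidium iodide kept out), so intact muscle fibres were not the target. Which tendon was cut is not stated in the labels. Each pool gave 1 library of 3-prime 10x Genomics counts, so treatment and library cannot be told apart and no test between the groups was possible.

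The tenotomy library held 94556283 UMIs in 11950 barcodes and the sham library 47781353 UMIs in 8463 barcodes, of which 10917 tenotomy and 7548 sham cells were kept, and 33 barcodes occurred in both. Cells were assigned to classes with marker genes, and 84.7% of tenotomy and 86.5% of sham cells received a class. Comparisons cover the 8 classes with 50 or more cells on both sides. Class names carry "-like" since they rest on marker genes and not on an annotation by the authors. Within a class, the UMIs of a gene were summed over cells and scaled to CPM, the UMIs of a gene per 1000000 UMIs of that class. Folds are tenotomy over sham, brackets give 95% intervals for counting error only, and a gene was counted as higher or lower where its fold was at least 2 in that direction. A gene was called measured in a class with at least 25 UMIs there over both libraries.

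Complex I takes electrons from NADH and complex II, succinate dehydrogenase, takes them from succinate. Complex III passes them to cytochrome c, complex IV (cytochrome c oxidase) passes them on to oxygen, and complex V, the ATP synthase, makes ATP from the proton gradient that complexes I, III and IV build. Several complex IV subunits exist as tissue isoforms, with Cox6a2, Cox7a1 and Cox8b as the striated muscle forms, and Cox4i2 and Ndufa4l2 as forms described in oxygen-sensing and vascular mural cells. Adult muscle stem cells are quiescent in resting muscle and are known to raise their mitochondrial content when they activate and differentiate.

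The promoters of the 5 members that led the tenotomy over sham ranking in muscle stem cell-like cells, by the interval bound nearest to 1, are shown first. That of Cox8b, a muscle isoform, is added for contrast. Cox8b had under 25 UMIs in muscle stem cell-like cells and was at least 2-fold lower in the 3 classes where it was measured. Each sequence runs from 120 bases before to 30 bases after the RefSeq start on GRCm38.p6, 5′ to 3′ on the strand of the gene, and capitals mark matches to the NRF1 motif (GCGCA, any base, then GCGC, searched on both strands), named for nuclear respiratory factor 1, a regulator of many mitochondrial genes.
Atp5o (chr16:91931601-91931750, minus strand): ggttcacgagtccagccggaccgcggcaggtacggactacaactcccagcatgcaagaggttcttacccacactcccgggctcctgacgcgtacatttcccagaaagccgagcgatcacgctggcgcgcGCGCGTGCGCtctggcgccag
Uqcrc1 (chr9:108936528-108936677, plus strand): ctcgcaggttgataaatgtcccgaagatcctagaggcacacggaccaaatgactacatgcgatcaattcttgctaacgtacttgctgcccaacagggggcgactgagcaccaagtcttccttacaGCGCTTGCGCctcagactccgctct
Ndufa8 (chr2:36049309-36049458, minus strand): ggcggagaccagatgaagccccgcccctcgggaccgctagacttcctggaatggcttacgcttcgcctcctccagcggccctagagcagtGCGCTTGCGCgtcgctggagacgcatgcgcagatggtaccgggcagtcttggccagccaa
Ndufs7 (chr10:80249329-80249478, plus strand): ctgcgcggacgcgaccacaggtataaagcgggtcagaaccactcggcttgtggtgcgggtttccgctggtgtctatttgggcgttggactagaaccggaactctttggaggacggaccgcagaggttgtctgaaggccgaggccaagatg
Ndufa4 (chr6:11907421-11907570, minus strand): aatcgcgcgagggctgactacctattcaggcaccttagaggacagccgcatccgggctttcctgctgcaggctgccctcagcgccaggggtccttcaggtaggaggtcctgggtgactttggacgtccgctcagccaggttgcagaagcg
Cox8b (chr7:140900417-140900566, minus strand): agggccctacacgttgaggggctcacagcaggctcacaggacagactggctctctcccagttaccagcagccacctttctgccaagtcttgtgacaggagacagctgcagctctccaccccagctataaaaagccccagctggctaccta

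RefSeq windows from 250 bases before to 50 after the start were found for 65 of the 83 members, 70 windows in all. The printed stretches of Ndufs7, Ndufa4 and Cox8b held no match, and the longer window of Uqcrc1 held 2, of which 1 is printed. The NRF1 motif occurred in 18 of the 70 windows (25.7%), against 1512 of the 32851 windows of all genes (4.60%). The motif CCGGAAG, bound by factors of the ETS family such as GABPA, occurred in 16 of the 70 (22.9%) and in 8.86% of all windows, and 4 member windows held both. In muscle stem cell-like cells the 17 measured members with the NRF1 motif had a median log2 fold of 1.46 and the 46 without it 1.34, with ranges of 0.19 to 2.28 and 0.17 to 2.27, so both sets covered nearly the same range. The 16 measured members with CCGGAAG had a median of 1.38 and the 47 without it 1.31. A match describes letters and is no measurement of binding.

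Across the classes, the tenotomy over sham folds of the subunit genes were highest in muscle stem cell-like cells. In myofibre-like cells 11 of 79 measured members had a fold above 1, against 896 of all 1588 measured genes. Of the 83 members, 75 were measured in all 8 classes. The muscle stem cell-like class had the highest fold for 64 of these 75, and the myofibre-like class the lowest for 56. A fold above 1 was found in at least 6 classes for 64 of the 75 members, and in all 8 classes for 5 (Ndufa10, Atp5d, Atp5g2, Atp5h and Atp5o). Ndufa1, Ndufa6 and Sdha were exceptions, with folds above 1 in 2 of the 8 classes. No share over all genes stands beside the counts over the 75 members. The median log2 fold of all measured genes was 0.44 in muscle stem cell-like cells, the highest of the 8 classes, and 0.17 in myofibre-like cells.

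**Figure D1:**
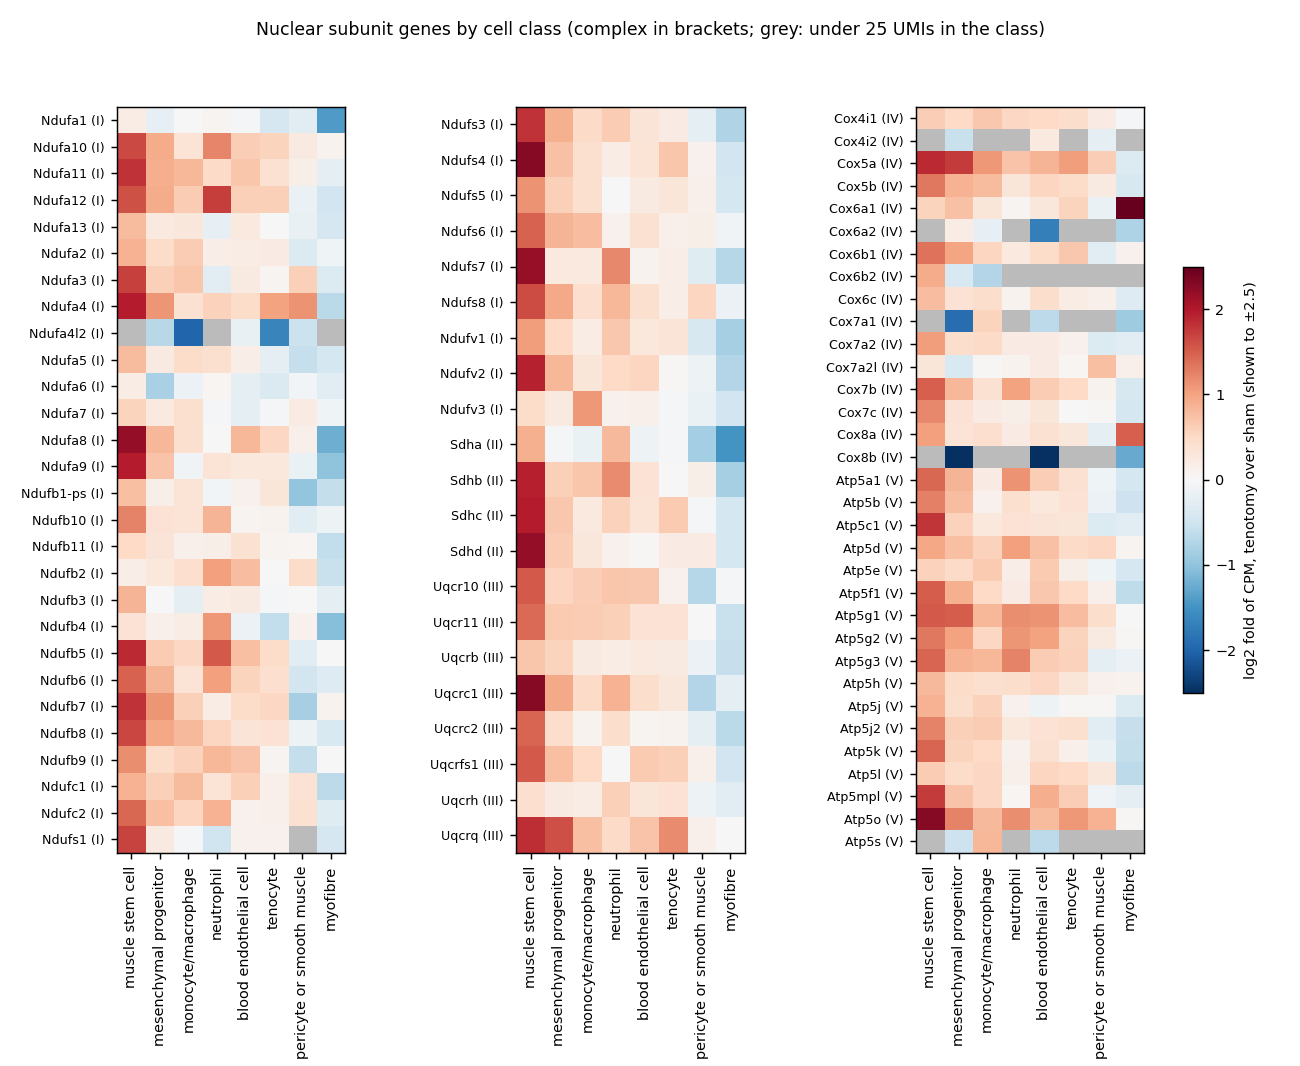
Log2 fold of CPM, tenotomy over sham, for 82 of the 83 members (rows, complex in brackets) in the 8 classes (columns). Red is higher after tenotomy, blue lower, and grey marks under 25 UMIs in the class. The muscle stem cell-like column is red wherever a member was measured, the myofibre-like column mostly blue, and Ndufa4l2 and Cox8b are blue where measured.

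The summed level of all members in tenotomy cells was 47828 CPM in myofibre-like, 27355 in muscle stem cell-like, 19126 in pericyte or smooth muscle-like and 17546 in blood endothelial-like cells. It was 16424 CPM in mesenchymal progenitor-like, 16273 in monocyte/macrophage-like, 14828 in tenocyte-like and 12840 in neutrophil-like tenotomy cells. In sham cells the order was myofibre-like (61096 CPM), pericyte or smooth muscle-like (19939), blood endothelial-like (13202), muscle stem cell-like (12256), tenocyte-like (12156), monocyte/macrophage-like (11890), mesenchymal progenitor-like (10827) and neutrophil-like (9822). In the tenotomy library the intervals of mesenchymal progenitor-like (16375 to 16474) and monocyte/macrophage-like cells (16227 to 16319) came close without overlapping. In the sham library muscle stem cell-like (12085 to 12429), tenocyte-like (12040 to 12272) and monocyte/macrophage-like cells (11742 to 12040) were close neighbours, and the intervals of muscle stem cell-like and tenocyte-like cells overlapped.

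**Figure D2:**
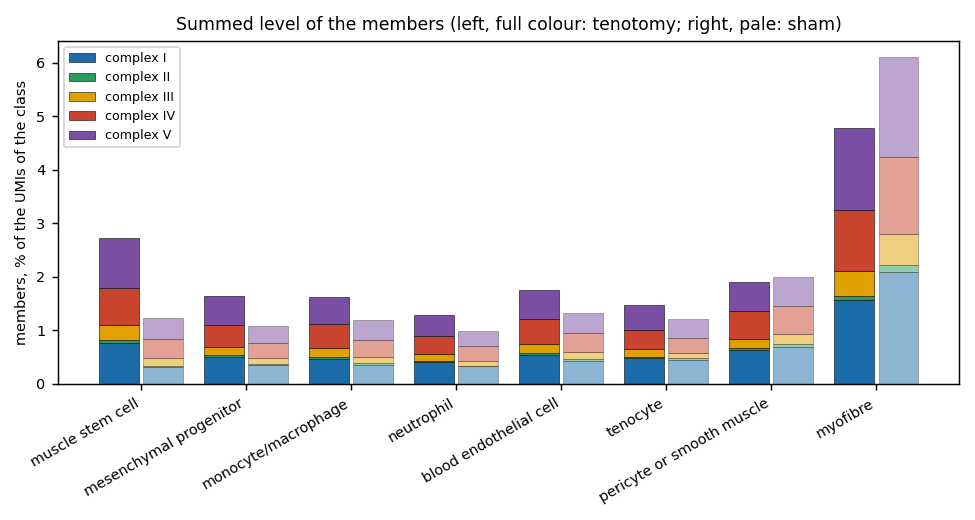
Summed level of the members as a percentage of the UMIs of each class (vertical axis), split by complex, with the tenotomy bar left of the pale sham bar. Muscle stem cell-like cells stand at 2.74% in tenotomy against 1.23% in sham, and myofibre-like cells at 4.78% against 6.11%.

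In muscle stem cell-like cells (164 tenotomy and 250 sham cells) the summed members were 2.23-fold higher (2.2 to 2.27), and 51 of 77 measured members were at least 2-fold higher and 0 lower. In this class 30.5% of all measured genes passed as higher and 10.6% as lower. The median log2 fold was 1.41 for the members and 0.44 for all genes. All 77 measured members had a fold above 1, against 5635 of all 8506 measured genes. Per cell, the members summed to 360 UMIs in tenotomy and 78.2 in sham, with median depths of 10728 and 5842.5 UMIs.

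Every complex held members that were at least 2-fold higher. Complex II, the smallest, had the highest median log2 fold at 1.95, with 3 of 4 members at least 2-fold higher. Complexes III and I had medians of 1.49 and 1.48, with 6 of 8 and 24 of 37 members higher. Complex V had a median of 1.37 with 11 of 16 higher, and complex IV had the lowest, 1.03, with 7 of 12.

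**Figure D3:**
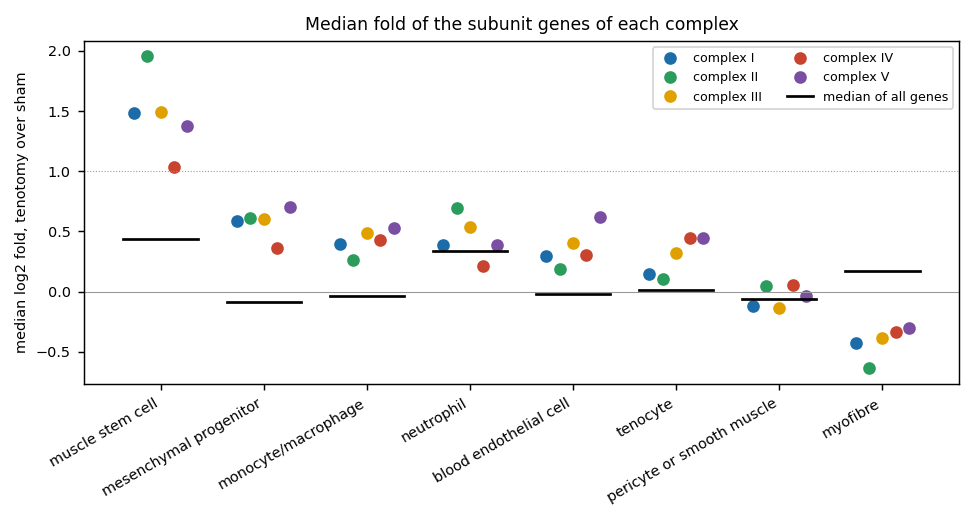
Median log2 fold, tenotomy over sham, of the members of each complex (points) in each class, with the median of all measured genes of the class as a black line. All 5 complexes lie above the line in muscle stem cell-like cells and below it in myofibre-like cells.

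Atp5o, which encodes the oligomycin sensitivity subunit that joins the 2 parts of the ATP synthase, had 630 CPM in tenotomy and 130 CPM in sham muscle stem cell-like cells, a fold of 4.86 (4.19 to 5.65). Uqcrc1, a core protein of complex III, had 185 and 38.2 CPM, a fold of 4.84 (3.69 to 6.45). Ndufs7, an iron-sulphur subunit at the quinone site of complex I, had 238 and 52.7 CPM, a fold of 4.52 (3.58 to 5.76). These 3 genes sit in 3 different complexes and none was near the 2-fold limit. Ndufa8, an accessory complex I subunit, had 170 and 37.0 CPM, a fold of 4.59 (3.48 to 6.15). Ndufa4, named for complex I but now placed with complex IV, was the most abundant of the leading genes after tenotomy, at 656 CPM against 167 CPM in sham, a fold of 3.92 (3.44 to 4.48).

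Complex I has 7 nuclear core subunits that carry its flavin and iron-sulphur clusters or line its quinone site. All 7 were at least 2-fold higher, against 30.5% of all measured genes in this class. The median log2 fold of these 7 was 1.81, against 1.20 for the other 30 measured complex I members, of which 17 were at least 2-fold higher. Folds ran from 2.07 for Ndufv1 to 4.52 for Ndufs7. Ndufv2 was at 186 CPM in tenotomy and 48.9 CPM in sham, and Ndufs1 at 70.4 and 21.9 CPM. Not all stayed past 2-fold in cells with neither cycle nor differentiation transcripts. Ndufv1, Ndufs1, Ndufs3 and Ndufs8 had folds of 1.23, 1.66, 1.81 and 1.97 there, and Ndufv2 and Ndufs7 of 2.20 and 2.52. In succinate dehydrogenase, Sdhb (the iron-sulphur subunit), Sdhc and Sdhd (the membrane anchors) had folds of 3.86, 3.90 and 4.59. Sdha, the flavoprotein subunit of the same enzyme, had 129 CPM in tenotomy and 69.6 CPM in sham, a fold of 1.86 (1.48 to 2.33), whose interval lies below those of the other Sdh genes.

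The abundant members are considered next. Cox4i1, the most abundant member of the class in both libraries, had 1469 CPM in tenotomy and 959 CPM in sham, a fold of 1.53 (1.44 to 1.63). Uqcrh, a small hinge protein of complex III, had 804 and 603 CPM, a fold of 1.33 (1.23 to 1.44). Atp5b and Atp5a1, the beta and alpha subunits of the ATP synthase head, had 1258 and 894 CPM in tenotomy and 524 and 332 CPM in sham, folds of 2.40 and 2.69. The smallest folds were those of Ndufb2 (1.13), Ndufa1 (1.14), Ndufa6 (1.14), Cox7a2l (1.23) and Ndufb4 (1.29).

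**Figure D4:**
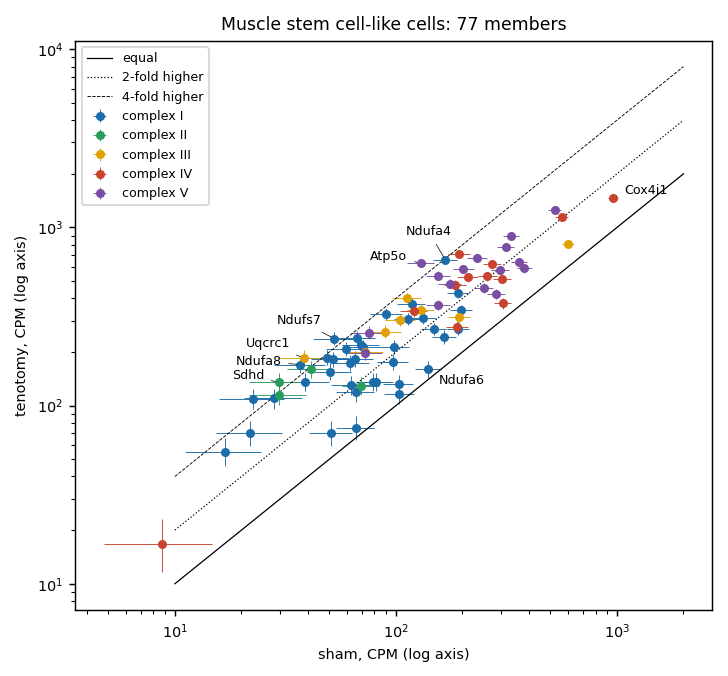
CPM of the 77 measured members in muscle stem cell-like cells, tenotomy on the vertical and sham on the horizontal axis (both log scales), with 95% Poisson intervals and colours by complex. All points lie above the line of equality, and Atp5o, Uqcrc1, Ndufs4, Ndufs7, Ndufa8 and Sdhd lie above the 4-fold line.

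The 2 libraries of this class differed in cell state as well. In a clustering of all kept cells, cluster 21 held 422 tenotomy and 3 sham cells and cluster 28 held 109 and 511, and with the class taken from these clusters 56 of 80 members were at least 2-fold higher, with 33.6% of all genes higher and a median log2 fold of 1.51 for the members. At least 2 UMIs over 12 cell cycle genes were found in 44.5% of tenotomy and 0% of 250 sham cells, which allows up to 1.2% in sham. At least 2 UMIs over genes of muscle differentiation (Myog, Mymk, Mymx, Tnnt2, Actc1, Myh3, Tnni1 and Cav3) were found in 31.1% of tenotomy and 0.8% of sham cells. The 10 myofibre markers summed to 755 CPM in tenotomy and 123 CPM in sham. In tenotomy cells the members summed to 28626 CPM in those with cycle transcripts and 30762 CPM in those with differentiation transcripts. Their median depths were 16019 and 17744 UMIs, against 5620 UMIs in tenotomy cells with neither. State and depth cannot be told apart here. The 67 tenotomy cells with neither had 19514 CPM (19086 to 19950), against 12069 CPM (11897 to 12242) in the 248 sham cells with neither. Between those cells 21 of 76 members were at least 2-fold higher, with a median log2 fold of 0.75, against 13.8% and 0.20 for all genes. In the same cells Atp5o had 383 CPM in tenotomy and 125 CPM in sham, Ndufa8 134 and 36.3, and Ndufa4 465 and 161, while Sdha had 89.0 and 69.4 and Ndufv1 76.7 and 62.4.

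Genes of the same pathway outside the rule were also examined in muscle stem cell-like cells. Cyc1, the cytochrome c1 subunit of complex III, had 290 CPM in tenotomy and 75.9 CPM in sham, a fold of 3.82, and cytochrome c itself (Cycs) had a fold of 1.99 (1.73 to 2.3). Ndufab1, the acyl carrier subunit of complex I, had 351 CPM in tenotomy and 92.2 CPM in sham, a fold of 3.81 (3.19 to 4.58). Of all measured genes in this class 30.5% were at least 2-fold higher and 10.6% lower, the background for the lists that follow. Of 39 measured assembly factors 27 were at least 2-fold higher and 1 lower. Sdhaf4, an assembly factor of complex II, had 31.5 CPM in tenotomy and 1.88 CPM (3 UMIs) in sham, a ratio of 16.7 (5.49 to 83.1), and Ttc19, of complex III, had 50.9 and 124 CPM. Of 16 enzymes of the tricarboxylic acid cycle 11 were higher, from Suclg2 (fold 1.08) to Dlat (3.21). Of 21 import and carrier genes 12 were higher, from Hspe1 (1.11) to Timm50 (8.81), a receptor of the inner membrane import machinery. Of 14 regulators of mitochondrial biogenesis and of mitochondrial DNA expression 8 were higher. Among these, the coactivator Ppargc1b had 13.4 CPM in tenotomy and 0.627 CPM (1 UMI) in sham, a ratio of 21.4 (3.55 to 874), and Yy1 had 211 and 251 CPM.

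The 13 subunit transcripts encoded in the mitochondrion differed from the nuclear ones. In muscle stem cell-like cells none was at least 2-fold higher and 1 was lower (mt-Atp8, 24.1 CPM in tenotomy and 50.8 CPM in sham), and their median log2 fold was -0.12. They made up 5.05% of the UMIs in tenotomy and 5.23% in sham, so that the ratio of mitochondrial to nuclear subunit UMIs was 1.85 in tenotomy and 4.27 in sham. In the other classes this ratio was 1.69 in tenotomy and 2.80 in sham for mesenchymal progenitor-like cells, 2.20 and 3.33 for tenocyte-like cells, 2.14 and 3.34 for monocyte/macrophage-like cells, and 1.95 and 2.52 for blood endothelial-like cells. It was close in pericyte or smooth muscle-like cells (2.60 and 2.47) and above the sham value in neutrophil-like cells (1.0 in tenotomy and 0.804 in sham). In myofibre-like objects it was 0.424 in tenotomy and 0.0613 in sham. Cells with over 10% mitochondrial UMIs had been left out, which bounds these values.

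In mesenchymal progenitor-like cells (1627 tenotomy and 2022 sham cells), the connective tissue progenitors of muscle, the summed members were 1.52-fold higher, but few single members reached 2-fold. Of 83 measured members, 7 were at least 2-fold higher and 2 lower, against 14.1% and 19.5% of all measured genes. Folds above 1 were found for 73 of 83, against 6310 of all 13652 measured genes. The median log2 fold was 0.58, against -0.09 for all genes. By complex, the medians were 0.59, 0.61, 0.60 and 0.36 for complexes I to IV and 0.71 for complex V. Different clusters held the cells of the 2 libraries, with 1283 tenotomy and 3 sham cells in cluster 7 and 29 and 855 in cluster 18. Tenocyte markers summed to 1479 CPM in tenotomy and 84.1 CPM in sham in this class, and their part in the values was not tested.

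Cox5a, a matrix-side subunit of complex IV, had 317 CPM in tenotomy and 94.7 CPM in sham mesenchymal progenitor-like cells, a fold of 3.35 (3.17 to 3.54). Uqcrq, a small subunit of complex III, had 306 and 99.8 CPM, a fold of 3.06 (2.9 to 3.23). Atp5g1, which encodes subunit c of the rotor ring of complex V, had 418 and 146 CPM, a fold of 2.87 (2.75 to 3.01). Atp5o (2.35) and Ndufa4 (2.14) completed the 5 leading members. Ndufa6, an accessory complex I subunit, was lower in tenotomy at 76.2 CPM, against 134 CPM in sham (0.567, 0.533 to 0.603), and Cox7a2l, a factor of respiratory supercomplexes, had 222 and 287 CPM (0.771). The 2 members counted as lower, Cox8b and Cox7a1, were at 0.196 and 0.822 CPM in tenotomy and 1.91 and 3.08 CPM in sham. These are muscle forms at trace level, and the 10 myofibre markers summed to 51.4 CPM in tenotomy and 94.3 CPM in sham mesenchymal progenitor-like cells, with none at 0. Their part in those 2 values was not tested.

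Cycle transcripts were found in 33.7% of tenotomy and 0.989% of sham mesenchymal progenitor-like cells. Without these cells 4 of 81 members were at least 2-fold higher, against 9.26% of all genes, and the median log2 fold was 0.48, against -0.13 for all genes. The summed members were then at 15076 CPM in tenotomy and 10808 CPM in sham. Median depths were 24303 UMIs in tenotomy cells with cycle transcripts and 8435.5 UMIs in those without. State and depth cannot be told apart here either.

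Subunit c, the ring protein of complex V, is made from 3 genes that encode the same mature protein. All 3 were at least 2-fold higher in muscle stem cell-like and in neutrophil-like cells, and 2 of 3 in mesenchymal progenitor-like and blood endothelial-like cells. In that order of classes, 30.5%, 20.3%, 14.1% and 9.32% of all measured genes were at least 2-fold higher. In neutrophil-like cells none of the 3 passed with classes taken from clusters, with a stricter gate, without cells carrying cycle transcripts, with means over cells or after division by the median fold of all genes. With means over cells none passed in blood endothelial-like cells either. Atp5g2 passed in 4 classes under the main setting. It passed in 1 with a stricter gate, with means over cells or without cells carrying cycle transcripts. In mesenchymal progenitor-like cells the share of subunit c UMIs from Atp5g1 was 39.2% (38.6 to 39.8) in tenotomy and 30.4% (29.4 to 31.4) in sham. In myofibre-like cells that share was 63.0% in tenotomy and 62.9% in sham, and the intervals overlapped.

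Monocyte/macrophage-like cells (4533 tenotomy and 281 sham cells) had a summed fold of 1.37, with 2 of 81 members at least 2-fold higher (background 9.1%) and 1 lower (background 12.6%). The median log2 fold was 0.42, against -0.03 for all genes. Folds above 1 were found for 72 of 81 members, against 5670 of all 11777 measured genes. Cox5a had 455 CPM in tenotomy and 216 CPM in sham, a fold of 2.11 (1.92 to 2.32), and Ndufv3, an accessory complex I subunit, had 96.1 and 45.2 CPM, a fold of 2.12 (1.73 to 2.64). The member counted as lower, Ndufa4l2, was at 0.741 CPM in tenotomy and 2.92 CPM in sham. Cycle transcripts were found in 12.7% of tenotomy and 4.98% of sham cells, and the count of members higher was 0 with classes taken from clusters.

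Blood endothelial-like cells (1460 tenotomy and 3262 sham cells) had a summed fold of 1.33, with 2 of 82 members at least 2-fold higher (background 9.32%) and 2 lower (background 8.45%). The 2 higher were subunit c genes. Atp5g1 had 294 CPM in tenotomy and 135 CPM in sham, a fold of 2.18 (2.04 to 2.34), and Atp5g2 had 410 and 203 CPM, a fold of 2.02 (1.91 to 2.14). Complex V also had the highest median log2 fold of the 5 complexes here, 0.62, against 0.19 to 0.40 for the others. Cox8b and Cox6a2, counted as lower, were at 0.342 and 1.20 CPM in tenotomy and 2.03 and 3.89 CPM in sham, beside myofibre markers that summed to 108 CPM in tenotomy and 224 CPM in sham. The cells of the 2 libraries lay mostly in different clusters, with 933 tenotomy and 77 sham cells in cluster 12, 112 and 1409 in cluster 8, and 245 and 1549 in cluster 9. With means over cells in place of summed UMIs the count of members higher was 0.

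Tenocyte-like cells (206 tenotomy and 375 sham cells) had a summed fold of 1.22 and a median log2 fold of 0.28, against 0.01 for all genes. Of 77 measured members 4 were at least 2-fold higher (background 7.83%) and 1 lower (background 10.2%). The 4 were Uqcrq (2.26), Atp5o (2.13), Cox5a (2.06) and Ndufa4 (2.02), all close to the threshold, and without cells carrying cycle transcripts (7.28% of tenotomy and 0.267% of sham cells) the count was 0, as it was with classes taken from clusters and with means over cells. Complexes IV and V had medians of 0.45 and 0.44, against 0.14 and 0.10 for complexes I and II.

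Cox5a, Ndufa4, Atp5o, Atp5g1 and Atp5g2 were each at least 2-fold higher in 4 of the 8 classes, and Uqcrq in 3. The remaining members measured in all 8 classes passed in fewer. At least 4 classes were thus reached by 6.67% of the 75 members measured in every class, against 6.91% of the 1057 genes measured in every class, shares that are close. Several of these calls were lost under other settings. With classes taken from clusters, Atp5g1 and Atp5g2 were each higher in 3 classes, and Cox5a, Ndufa4, Atp5o and Uqcrq in 2. With means over cells, Cox5a was higher in 3 classes, Ndufa4, Atp5o, Atp5g1 and Uqcrq in 2, and Atp5g2 in 1.

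With the limit raised to 100 UMIs, the counts of members at least 2-fold higher and lower were 7 and 0 of 79 in mesenchymal progenitor-like cells (background 13.1% and 16.1%), 51 and 0 of 76 in muscle stem cell-like cells (25.9% and 11.8%) and 4 and 1 of 77 in tenocyte-like cells (6.74% and 7.39%). They were 2 and 0 of 79 in blood endothelial-like cells (6.68% and 6.57%) and 2 and 0 of 79 in monocyte/macrophage-like cells (8.62% and 8.23%). They were 0 and 0 of 37 in pericyte or smooth muscle-like cells (5.53% and 6.04%), 13 and 0 of 69 in neutrophil-like cells (9.68% and 0.758%) and 0 and 3 of 65 in myofibre-like cells (14.3% and 9.45%). Cox8b, Cox7a1 and Cox6a2, counted as lower at 25 UMIs in mesenchymal progenitor-like or blood endothelial-like cells, had under 100 UMIs there.

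Neutrophil-like cells (500 tenotomy and 60 sham cells) had 14 of 76 members at least 2-fold higher (background 20.3%) and 0 lower (background 1.33%), and a median log2 fold of 0.39, against 0.33 for all genes. Among genes with at least 100 UMIs the count was 13 of 69 members, against 9.68% of all genes, and the medians were 0.37 for members and 0.17 for all genes. Ndufb5 had 137 CPM in tenotomy and 47.0 CPM in sham, a fold of 2.91 (1.82 to 4.93), and Atp5a1, the alpha subunit of the ATP synthase head, had 195 and 89.1 CPM, a fold of 2.19 (1.55 to 3.18). The level differed between cell states. Tenotomy cells with cycle transcripts (14.2% of tenotomy and 13.3% of sham cells) had 17324 CPM and tenotomy cells without them 8845 CPM. Their median depths were 8920 and 1658 UMIs, so state and depth cannot be told apart here. Cells without cycle transcripts had 8845 CPM (8650 to 9045) in tenotomy and 8308 CPM (7962 to 8666) in sham. Their intervals overlapped. Then 4 of 68 members were at least 2-fold higher, against 11.8% of all genes, and the medians were 0.12 for members and 0.19 for all genes.

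Pericyte or smooth muscle-like cells (62 tenotomy and 82 sham cells) had 19126 CPM of members in tenotomy and 19939 CPM in sham, a fold of 0.959 (0.921 to 0.999). Of 77 measured members 1 was at least 2-fold higher (background 6.42%) and 0 lower (background 9.18%), and the median log2 fold was -0.08, against -0.06 for all genes. The member counted was Ndufa4, with 97.7 CPM in tenotomy and 45.1 CPM in sham, and its interval was wide (1.04 to 4.63). The sign of the median was not stable. With the class taken from clusters (192 tenotomy and 296 sham cells) it was 0.25, against -0.09 for all genes, and all 5 complexes had medians above 0. It was 0.11, against -0.06, with a gate on cells thinned to 1500 UMIs, and 0.16, against -0.01, with at most 5% mitochondrial UMIs. A stricter gate, with 26 tenotomy and 50 sham cells, gave 0 of 61 members higher, against 5.96% of all genes, and 6 lower. The share of all genes lower was 9.18% under the main setting and is not given for the stricter gate. Mesenchymal progenitor markers summed to 2584 CPM in tenotomy and 876 CPM in sham in this class, and their part in the values was not tested.

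Myofibre-like objects (72 tenotomy and 51 sham barcodes) were defined by at least 5% of UMIs from 10 myofibre genes such as Acta1 and Myh4. Living mononuclear cells were sorted and the objects were shallow, with medians of 1347 UMIs in tenotomy and 2373 in sham, so they do not stand for whole fibres. The summed members were at 47828 CPM in tenotomy and 61096 CPM in sham, a fold of 0.78. Of 79 measured members 2 were at least 2-fold higher (background 17.7%) and 6 lower (background 10.2%), and the median log2 fold was -0.41, against 0.17 for all genes. Complex II had the lowest median, -0.64, and complex V the least low, -0.31.

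The 2 members that were higher are the widely expressed complex IV isoforms. Cox6a1 had 143 CPM (23 UMIs) in tenotomy and 20.2 CPM (4 UMIs) in sham myofibre-like objects, a fold of 7.06 (2.41 to 28.1). Cox8a had 286 CPM in tenotomy and 101 CPM in sham, a fold of 2.83 (1.64 to 5.04). Of their muscle counterparts, Cox8b fell to 348 CPM in tenotomy, against 834 CPM in sham (0.417, 0.302 to 0.568), and Cox6a2 was at 1516 CPM in tenotomy and 2599 CPM in sham (0.583, 0.499 to 0.681). The share of Cox8b in the UMIs of Cox8a and Cox8b was therefore 54.9% (44.7 to 64.8) in tenotomy and 89.2% (83.8 to 93.3) in sham, and that of Cox6a2 in its pair was 91.4% (87.4 to 94.5) and 99.2% (98.0 to 99.8). Cox7a1 had a share of 25% (17.0 to 34.4) in tenotomy and 33.9% (26.9 to 41.5) in sham, and the intervals overlapped. Sdha was at 106 CPM in tenotomy and 298 CPM in sham (0.354, 0.193 to 0.616), and Ndufa8 at 217 and 506 CPM (0.430).

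The Cox8b difference was smaller without the objects that carried differentiation transcripts, 13 of the 72 tenotomy and 8 of the 51 sham objects. In tenotomy the median depth was 3579 UMIs with these transcripts and 938 UMIs without cycle or differentiation transcripts. State and depth cannot be told apart here. Among the 59 tenotomy and 43 sham objects without cycle or differentiation transcripts, the share of Cox8b was 79.6% (66.5 to 89.4) in tenotomy and 88.8% (82.2 to 93.6) in sham, with overlapping intervals. The share of Cox6a2 was 96.9% in tenotomy and 99.1% in sham there, also with overlapping intervals, and that of Cox7a1 was 23.4% and 33.3%. Of 77 members in these objects 0 were at least 2-fold higher and 2 were lower, with 11% of all genes higher. The share of all genes lower was 10.2% under the main setting and is not given for these objects. The median log2 fold was -0.20, against 0.10 for all genes. Cox6a1 had under 25 UMIs there and was not counted, with 58.7 CPM in tenotomy and 21.6 CPM in sham. Cox8a had 129 and 108 CPM. Mitochondrially encoded subunits also differed less without the objects carrying cycle or differentiation transcripts. They made up 2.03% of UMIs in all tenotomy and 0.375% in all sham objects, with 10 of 10 measured transcripts at least 2-fold higher, but 0.558% in tenotomy and 0.524% in sham without those objects. Myofibre markers summed to 137918 CPM in tenotomy and 217359 CPM in sham objects, mesenchymal progenitor markers to 261 and 3584 CPM, and muscle stem cell markers to 7435 and 3205 CPM. Their part in the difference was not tested.

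The isoform pair of Ndufa4 and Ndufa4l2 separated the connective tissue and mural classes. Since 3-prime UMIs count molecules, the 2 genes of a pair were compared without a length scale. In pericyte or smooth muscle-like cells Ndufa4l2 held 92.7% (89.0 to 95.5) of the UMIs of the pair in tenotomy and 97.5% (95.9 to 98.6) in sham. In tenocyte-like cells it held 28.4% (25.3 to 31.6) in tenotomy and 71.6% (69.4 to 73.6) in sham, the widest difference among the pairs and classes compared. Ndufa4l2 was at 119 CPM in tenotomy and 375 CPM in sham tenocyte-like cells, a fold of 0.318 (0.275 to 0.366), while Ndufa4 was at 301 and 149 CPM, a fold of 2.02 that lay at the 2-fold limit. The Ndufa4 fold was 1.65 with classes taken from clusters and 1.88 without cells carrying cycle transcripts. In mesenchymal progenitor-like cells the share was 7.73% (7.23 to 8.25) in tenotomy and 22.5% (21.2 to 23.9) in sham, and in blood endothelial-like cells 3.00% (2.39 to 3.70) and 4.61% (4.01 to 5.28). In muscle stem cell-like cells without cycle or differentiation transcripts it was 0.529% in tenotomy and 0.784% in sham. Pericyte or smooth muscle markers summed to 646 CPM in tenotomy and 873 CPM in sham blood endothelial-like cells. Their part in the share of that class was not tested.

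The shift in tenocyte-like cells held in other sets of cells. It was 33.5% in tenotomy and 71.6% in sham among cells without cycle or differentiation transcripts, 35.6% and 72.5% among cells with no UMI of the myofibre markers, and 35.7% and 69.8% with the class taken from clusters. Tenocyte markers summed to 18901 CPM in tenotomy and 28190 CPM in sham tenocyte-like cells, and pericyte or smooth muscle markers, of the class with the highest Ndufa4l2 share, to 46.3 and 46.7 CPM, with 3 of 8 at 0 in tenotomy. In the same cells mesenchymal progenitor markers summed to 35000 CPM in tenotomy and 60778 CPM in sham, and neutrophil markers to 642 and 62.0 CPM, and their part in the shift was not tested.

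Cox4i2, the alternative form of the complex IV subunit Cox4i1, was found at appreciable level in pericyte or smooth muscle-like cells only among the 8 classes. It had 567 CPM in tenotomy and 661 CPM in sham, or 38.2% (32.7 to 43.9) and 45.4% (40.7 to 50.1) of its pair, with overlapping intervals. In the other 7 classes its share was below 1% in both libraries.

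**Figure D5:**
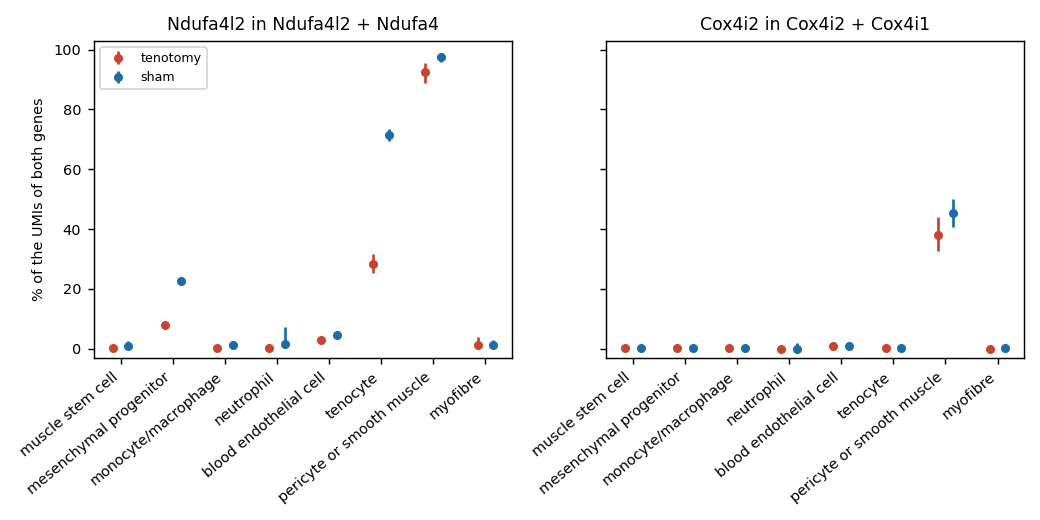
Share of the alternative isoform in the UMIs of an isoform pair, in percent, for Ndufa4l2 (left panel) and Cox4i2 (right panel) in each class, with tenotomy points left of sham points and exact 95% Clopper-Pearson intervals. For Ndufa4l2 the tenocyte-like cells stand at 28.4% in tenotomy against 71.6% in sham, and for Cox4i2 the pericyte or smooth muscle-like cells stand apart from all others.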

How the data were processed

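Each of the 2 deposited matrices holds raw UMI counts for every gene in every barcode. Per the submitters' processing notes they were made with Cell Ranger 4.0.0 on mm10, and neither the annotation nor the counting of reads shared with pseudogenes is stated there. Symbols and coordinates came from GENCODE, in which 32235 of 32285 identifiers were found. Cells were kept with at least 300 genes, 500 UMIs and at most 10% mitochondrial UMIs. Doublets were called with scrublet in scanpy 1.11.5, at the threshold of the tenotomy library because the automatic one marked 1 sham cell, and 320 tenotomy and 190 sham cells were removed. A cell was given a class with UMIs for at least 3 and at least 30% of its markers, where the next class had at most 50% of that share, and was myofibre-like with at least 5% of UMIs from myofibre markers. Of the muscle stem cell-like cells, 96 of 164 in tenotomy and 116 of 250 in sham lay near that gate.

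UMIs were summed per class and library. Fold intervals are exact conditional binomial, levels have exact Poisson and shares exact Clopper-Pearson 95% intervals, all for counting error only, and a count of 0 was taken at 3 UMIs in a fold. The interval code was tested on simulated data. Each group was 1 library of pooled muscles, so no p-values were computed. Named genes are, per class, the 5 members with the largest and the 5 with the smallest folds by the interval bound nearest to 1, the isoform pairs, the core subunits of complex I, the Sdh genes, the extremes of each list, and members whose interval lay wholly past 2-fold higher in 1 class and wholly past 2-fold lower in another. No member met that last condition, while Ndufa8, Ndufa9 and Ndufb4 passed 2-fold in opposite directions by the fold alone. Cox4i1, Uqcrh, Atp5b, Atp5a1 and mt-Atp8 in muscle stem cell-like cells and the cell state comparisons were chosen after values were seen. The members, markers and lists were chosen with earlier results of these data known. Alternatives covered the cell filter, doublets, the gate, clusters, scaling, cell states, UMI minimum and fold limit. The limit for naming clusters was set after their scores were seen. The values of 1 member are not reported here singly.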

Additional observations from a re-analysis of the deposited data

Results flagged for a closer look

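The fold of the summed members lay above 1 in some classes and below 1 in others. The tenotomy over sham fold of the sum was above 1, with its counting interval, in muscle stem cell-like (2.23), mesenchymal progenitor-like (1.52), monocyte/macrophage-like (1.37), blood endothelial-like (1.33), neutrophil-like (1.31) and tenocyte-like cells (1.22). It was below 1 in pericyte or smooth muscle-like (0.96) and myofibre-like cells (0.78). In pericyte or smooth muscle-like cells the direction depended on the choice of cells, since the median log2 fold of the members was -0.08, but 0.25 with the class taken from clusters and 0.11 with a gate on thinned cells, where the medians of all genes were -0.09 and -0.06. In neutrophil-like cells without cycle transcripts the sums were 8845 CPM in tenotomy and 8308 CPM in sham, with overlapping intervals. With the class taken from clusters the median log2 fold of neutrophil-like cells was 0.08, against 0.10 for all genes. Each class had 1 library per group, and the difference between classes was not tested.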

How the results depend on the processing

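No paired analysis was possible because each group has 1 library, and for the same reason no library could be left out. Of 202 comparisons of the class counts and medians with an alternative, 151 stayed within the limits and 51 moved. Of 93 class medians 3 turned sign, all in pericyte or smooth muscle-like cells (-0.08 in the report), to 0.16 with at most 5% mitochondrial UMIs, 0.11 with the gate on thinned cells and 0.25 with clusters. Of 200 medians of single complexes 13 turned sign, in pericyte or smooth muscle-like, neutrophil-like and tenocyte-like cells. Counts below are members at least 2-fold higher, and a percentage in brackets is the share of all genes higher under the same setting. For myofibre-like cells that share was 17.7% under the main setting. At most 5% mitochondrial UMIs gave 1 of 80 in blood endothelial-like (9.2%) and 2 of 64 in pericyte or smooth muscle-like cells (9.53%). It gave 0 of 80 in monocyte/macrophage-like (8.72%) and 1 in myofibre-like cells. At most 20% gave 1 of 82 in blood endothelial-like (9.38%) and 0 of 77 in pericyte or smooth muscle-like cells (6.53%). A stricter gate gave 1 of 77 in tenocyte-like (5.5%) and 1 of 82 in blood endothelial-like cells (8.08%). It gave 0 of 61 in pericyte or smooth muscle-like (5.96%) and 5 of 75 in neutrophil-like cells (13.7%). In muscle stem cell-like cells (36 tenotomy and 82 sham cells) it gave 44 of 75 (21.2%, median 1.07). A gate on cells thinned to 1500 UMIs gave 0 of 77 in tenocyte-like (6.13%) and 1 of 82 in blood endothelial-like cells (8.59%). It gave 22 of 76 in neutrophil-like (26.1%) and 0 in myofibre-like cells. Clusters in place of the gate gave 0 of 77 in tenocyte-like (5.81%) and 0 of 80 in pericyte or smooth muscle-like cells (5.16%). They gave 0 of 82 in monocyte/macrophage-like (6.44%), 0 of 77 in neutrophil-like (7.15%) and 0 in myofibre-like cells. Division by the median fold of all genes gave 13 of 83 (16.0%, median 0.67) in mesenchymal progenitor-like cells. It gave 36 of 77 (20.2%, median 0.97) in muscle stem cell-like cells and 2 of 76 in neutrophil-like cells (12.6%). Means over cells gave 4 of 83 (10.9%, median 0.45) in mesenchymal progenitor-like, 0 of 77 in tenocyte-like (6.00%) and 0 of 82 in blood endothelial-like cells (8.04%). They gave 2 of 77 in pericyte or smooth muscle-like (6.85%), 4 of 81 in monocyte/macrophage-like (10.4%) and 6 of 76 in neutrophil-like cells (22.5%). Without cells carrying cycle transcripts the values were 4 of 81 (9.26%, median 0.48) in mesenchymal progenitor-like and 0 of 77 in tenocyte-like cells (6.23%). They were 1 of 82 in blood endothelial-like (6.84%), 4 of 68 in neutrophil-like (11.8%) and 1 in myofibre-like cells, and 46 of 76 (19.6%, median 1.18) in muscle stem cell-like cells. A limit of 1.5-fold gave 41 of 83 in mesenchymal progenitor-like (24.3%), 11 of 77 in tenocyte-like (19.3%) and 22 of 82 in blood endothelial-like cells (19.0%). It gave 6 of 77 in pericyte or smooth muscle-like (16.9%), 22 of 81 in monocyte/macrophage-like (18.5%) and 27 of 76 in neutrophil-like cells (36.3%). At least 100 UMIs gave 0 in pericyte or smooth muscle-like (5.53%) and myofibre-like cells (14.3%). The remaining settings were chosen after seeing the data. Leaving out cells with cycle or differentiation transcripts gave 21 of 76 (13.8%, median 0.75) in muscle stem cell-like and 0 in myofibre-like cells. Leaving out differentiation transcripts alone gave 0 in myofibre-like cells, and leaving out granulocyte precursor transcripts gave 5 of 34 in neutrophil-like cells (14.8%). The causes were not tested.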
